A study of Mus musculus with 6 samples.

Results

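The 10 genes examined here make, desaturate, elongate and store fatty acids: Fasn, Acaca, Srebf1, Scd1, Scd2, Fads1, Fads2, Elovl5, Elovl6 and Plin2. They were taken by symbol from the 24422 rows of the gene count tables; the rule holds no measured value, but it was set with earlier results of these data known. All 10 were among the 16509 genes that received an adjusted p. Whole kidneys of C57BL/6 mice at postnatal day 13 were sequenced as 6 libraries, 3 Control and 3 TfR1 knockout, all from mice on a diet of 220 ppm iron. The Control genotype is given as wild type. The TfR1 knockout genotype is given as Tfr1f/f;SixCre, in which a floxed transferrin receptor gene is cut by Six2Cre in the progenitors of nephron tubules. Collecting duct, stroma and vessels do not arise from these progenitors, and the study described tubule cells that had escaped deletion at this age, so the model is a mosaic kidney. The labels number the libraries as biological replicates and name no animals, so p-values measure the spread between these libraries.

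Total counts were 16591156 to 22898008 per library. The targeted gene, Tfrc, had 5534, 6485 and 3667 normalized counts in Control 1 to 3 and 6976.0, 4045 and 5898 in the libraries labelled TfR1 knockout 1 to 3 (log2 change 0.11, SE 0.29, DESeq2 adjusted p = 0.853). Counts summed over the whole gene cover more than the floxed exons and more cells than Six2Cre reaches, so this value does not check the labels, and directions below refer to libraries as labelled. Nephron markers were present in every library. Summed thick ascending limb and distal markers were 56944 to 115612 normalized counts in Control and 13795 to 25996 in the libraries labelled TfR1 knockout, and all 7 of 7 fell. Macrophage markers were 2793 to 4601 in Control and 8156 to 10293 in the knockout-labelled libraries, and 8 of 12 rose. Adrenal cortex markers stood at 25949 normalized counts in Control 1 and 3382 in TfR1 knockout 3, against 154.1 to 373.6 in the other libraries.

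Fatty acid synthesis starts with acetyl-CoA carboxylase (Acaca), which makes malonyl-CoA, and fatty acid synthase (Fasn), which builds palmitate from it. Desaturases then insert double bonds with an iron centre in the enzyme, fed by electrons from cytochrome b5: Scd1 and Scd2 make monounsaturated fatty acids, and Fads1 and Fads2 act on polyunsaturated ones. Elongases add carbon pairs, SREBP-1 (Srebf1) is a transcription factor for much of the pathway, and perilipin 2 (Plin2) coats lipid droplets, which tubule cells and macrophages both form.

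Scd1 was the one gene of the 10 that rose in the libraries labelled TfR1 knockout, 2.01-fold, with an adjusted p of 0.0235 by DESeq2. No gene of the 10 fell. Scd2 (1.63-fold) and Plin2 (1.74-fold) were higher in each knockout-labelled library than in any Control library but missed the adjusted threshold. The core synthesis genes Fasn and Acaca, the regulator Srebf1, the front-end desaturases Fads1 and Fads2 and the elongases Elovl5 and Elovl6 did not pass, and the values of each overlapped between groups. A call of 1 of 10 higher stands beside 7.74% of all tested genes called higher and 7.18% called lower, 14.9% in all. Values of 2 of 10 genes lay above Control without overlap, beside 16.9% of all tested genes, and 0 of 10 lay below, beside 16.9%. By edgeR's quasi-likelihood test 0 of the 10 passed, beside 6.02% of all genes, and by limma-voom 0 passed, beside 6.15%. An unadjusted p under 0.05 was reached by 3 of 10 with DESeq2, beside 27.3% of all genes, and by 3 of 10 with edgeR, beside 25.8%. The median log2 change of the 10 genes was 0.185, with 6 positive and 4 negative, against 0.00715 over all tested genes, of which 50.7% were positive. In RNA from a whole organ, fewer cells of a type and less RNA per cell cannot be told apart.

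**Figure D1:**
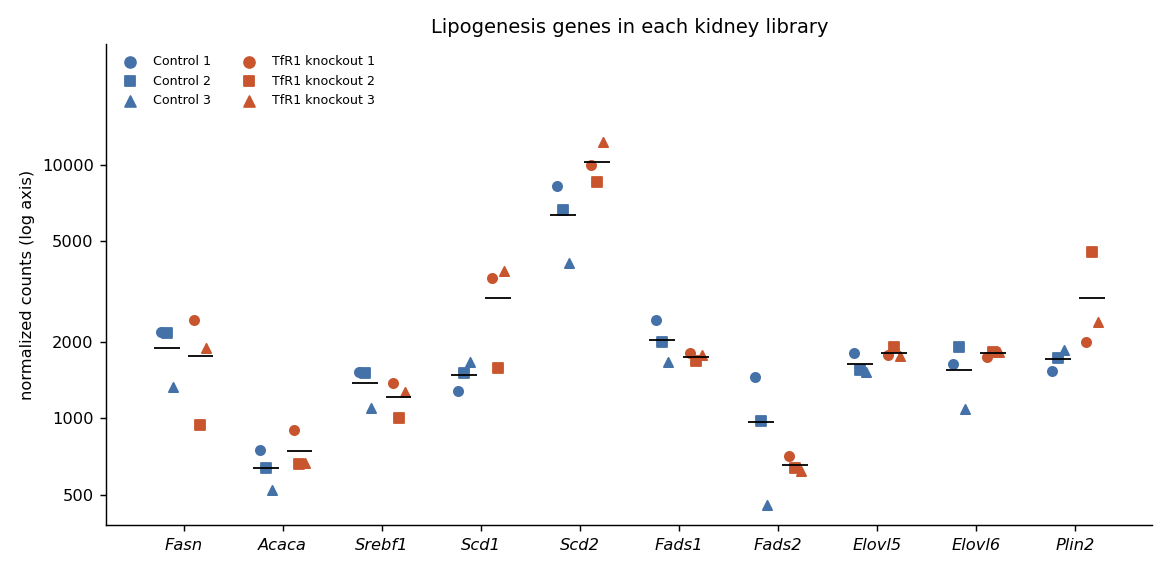
Normalized counts of the 10 genes (log axis) in each of the 6 libraries, with Control in blue, TfR1 knockout in orange, 1 marker shape per replicate number and a bar at each group mean (n = 3). Scd2 and Plin2 are the genes whose groups do not overlap; for Scd1, TfR1 knockout 2 lies at 1578 among Control values while the other knockout-labelled libraries are at 3595 and 3799.

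**Figure D2:**
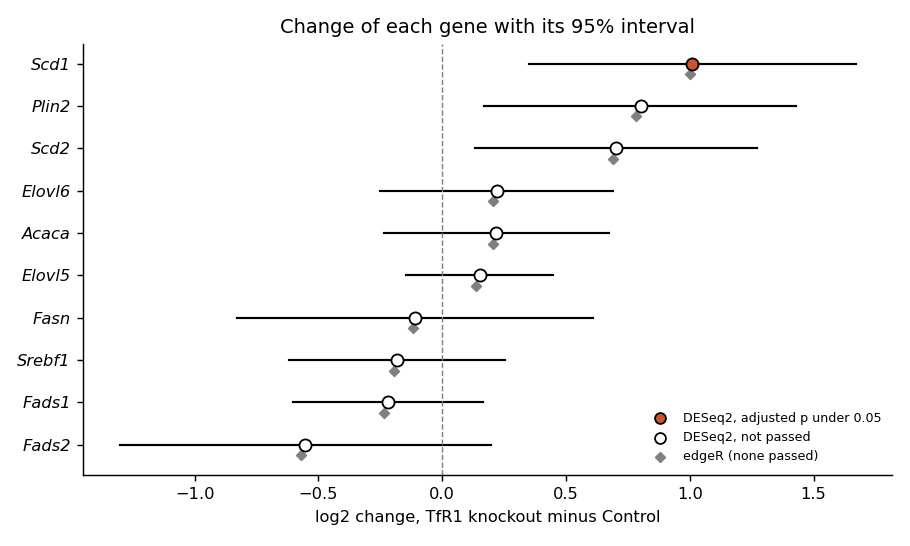
Log2 change (TfR1 knockout minus Control) of each gene from DESeq2 with its 95% interval, and the edgeR estimate as a grey diamond. The intervals of Scd1, Plin2 and Scd2 lie above 0 and that of every other gene spans 0; Scd1 alone, filled, passed the adjusted threshold.

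Levels per length were highest for Scd2 and lowest for Acaca in both groups. In RPKM (counts scaled to annotated exon length and to library total), Scd2 had the highest mean level in Control, 61.7, followed by Fads2 (33.9), Fads1 (31.5), Plin2 (26.1), Elovl5 (24.8), Scd1 (16.5), Elovl6 (13.8), Srebf1 (13.1), Fasn (10.3) and Acaca (3.34). Neighbours in this order overlapped between libraries except at Elovl5 over Scd1 and at Fasn over Acaca. The annotated exons of Fads2 cover only 1508 bases, which makes its level per length uncertain. In the knockout-labelled libraries Scd2 stood apart from the rest at 94.8 RPKM, and Plin2 (41.2) and Scd1 (31.6) came next with overlapping values. Acaca was again lowest at 3.64, overlapping there with Fasn at 9.10.

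The synthesis enzymes and their regulator were examined first. Fasn (mm9 chromosome 11, 120667254 to 120685492, minus strand) had 2199.8, 2169 and 1326 normalized counts in Control 1 to 3 and 2438, 945.5 and 1893 in the libraries labelled TfR1 knockout 1 to 3. TfR1 knockout 1 was the highest of the 6 and TfR1 knockout 2 the lowest, so the knockout-labelled values enclosed those of Control. The log2 change was -0.11 (SE 0.37, 95% interval -0.83 to 0.61, DESeq2 adjusted p = 0.883, edgeR 0.855). It turned positive without Control 1 (0.00415) and without TfR1 knockout 2 (0.193).

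Acaca (chromosome 11, 83943174 to 84215153, plus strand) had 747.8, 639.0 and 523.1 normalized counts in Control and 900.0, 660.2 and 664.1 in the knockout-labelled libraries. TfR1 knockout 1 was above all Control values, and the other knockout-labelled libraries lay within the Control range. This was a log2 change of 0.22 (SE 0.23, 95% interval -0.24 to 0.67, DESeq2 adjusted p = 0.581). Srebf1 (chromosome 11, 60012591 to 60036083, minus strand), whose product is released from the membrane before it acts so that its transcript level is not its activity, had 1530.3, 1509 and 1100.1 in Control and 1383, 999.2 and 1267 in the knockout-labelled libraries. TfR1 knockout 2 was lowest, as for Fasn, and the groups overlapped. The log2 change of Srebf1 was -0.18 (SE 0.22, 95% interval -0.62 to 0.26, DESeq2 adjusted p = 0.644). Each of these intervals includes changes in both directions.

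The stearoyl-CoA desaturases, which put a double bond at the ninth carbon, lie 87.6 kb apart on chromosome 19. Scd1 (44468941 to 44482199, minus strand) had 1283, 1504 and 1667 normalized counts in Control (mean 1485 ± 193 SD, n = 3). It had 3595, 1578 and 3799 in the libraries labelled TfR1 knockout (2990.5 ± 1228, n = 3). TfR1 knockout 1 and 3 were well above every Control library, and TfR1 knockout 2 was below Control 3, so the groups overlapped. The log2 change was 1.01 (SE 0.34), a 2.01-fold difference with a 95% interval of 1.28 to 3.18. It passed by DESeq2 (adjusted p = 0.0235) but not by edgeR (0.109) or limma-voom (0.148). The call also failed without Control 1 (DESeq2 adjusted p = 0.159), Control 2 (0.105), TfR1 knockout 1 (0.0896) or TfR1 knockout 3 (0.182, log2 change 0.80). It held without Control 3 (0.0303) and without TfR1 knockout 2 (1.66e-10, log2 change 1.32).

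Scd2 (44368166 to 44381354, plus strand) had 8244, 6612 and 4100.1 normalized counts in Control (6318 ± 2087) and 9960.3, 8566 and 12317 in the knockout-labelled libraries (10281 ± 1896). All 3 knockout-labelled values were above the highest Control value, by a narrow margin for TfR1 knockout 2 over Control 1. The log2 change of Scd2 was 0.70 (SE 0.29), 1.63-fold with a 95% interval of 1.10 to 2.41, and did not pass (DESeq2 adjusted p = 0.0841, edgeR adjusted 0.174). Without Control 1 it passed (log2 change 0.94, DESeq2 adjusted p = 0.0334), and without Control 3 the log2 change was 0.47. The related genes Scd3 and Scd4 had 1 to 13 and 11 to 19 raw counts per library.

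The front-end desaturases, which add double bonds nearer the carboxyl end of polyunsaturated chains, lie 81.4 kb apart on chromosome 19. Fads1 (10257378 to 10271360, plus strand) had 2446, 2011 and 1666 normalized counts in Control and 1809, 1679.9 and 1774 in the knockout-labelled libraries. The Control libraries were spread with a coefficient of variation of 19.1% and the knockout-labelled libraries with 3.80%, all of the latter inside the Control range. The log2 change was -0.22 (SE 0.20, 95% interval -0.60 to 0.16, DESeq2 adjusted p = 0.499). Fads2 (10138654 to 10175993, minus strand), the first enzyme of the pathway to arachidonate and docosahexaenoate, had 1456, 978.0 and 456.4 in Control and 711.0, 639.7 and 619.6 in the knockout-labelled libraries. Its Control values differed 3.19-fold between Control 1 and Control 3, and the knockout-labelled values fell between them. The coefficients of variation of Fads2 were 51.9% and 7.32%. Its log2 change was -0.55 (SE 0.38, 95% interval -1.30 to 0.20, DESeq2 adjusted p = 0.359). It was -0.13 without Control 1, and without Control 3 it was -0.89 and passed (DESeq2 adjusted p = 0.00343).

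Of the elongases, Elovl5 (chromosome 9, 77765171 to 77832326, plus strand) acts on polyunsaturated chains and had the narrowest interval of the 10 genes. Its values were 1813, 1555 and 1531 normalized counts in Control and 1778, 1911 and 1755 in the knockout-labelled libraries, overlapping at Control 1. Its log2 change was 0.15 (SE 0.15, 95% interval -0.15 to 0.45, DESeq2 adjusted p = 0.555). Elovl6 (chromosome 3, 129235304 to 129341413, plus strand), which takes palmitate to stearate, had 1642, 1912 and 1093 in Control and 1748, 1832 and 1835 in the knockout-labelled libraries. Control 3 was low and the knockout-labelled values lay within the Control range. The log2 change of Elovl6 was 0.22 (SE 0.24, 95% interval -0.25 to 0.69, DESeq2 adjusted p = 0.593).

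Plin2 (chromosome 4, 86294290 to 86315964, minus strand) had 1534, 1739 and 1856 normalized counts in Control (1709.7 ± 163) and 1998, 4549.6 and 2393 in the knockout-labelled libraries (2980.2 ± 1373). All 3 knockout-labelled libraries were above all Control libraries, and TfR1 knockout 2, the lowest of the 6 for Fasn, was the highest for Plin2. This was a log2 change of 0.80 (SE 0.32), 1.74-fold with a 95% interval of 1.13 to 2.70, which did not pass (DESeq2 adjusted p = 0.0742, edgeR adjusted 0.148). Without TfR1 knockout 2 the log2 change of Plin2 was 0.37 (DESeq2 adjusted p = 0.232), and without TfR1 knockout 1 it was 1.02 and passed (adjusted p = 0.00857).

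**Figure D3:**
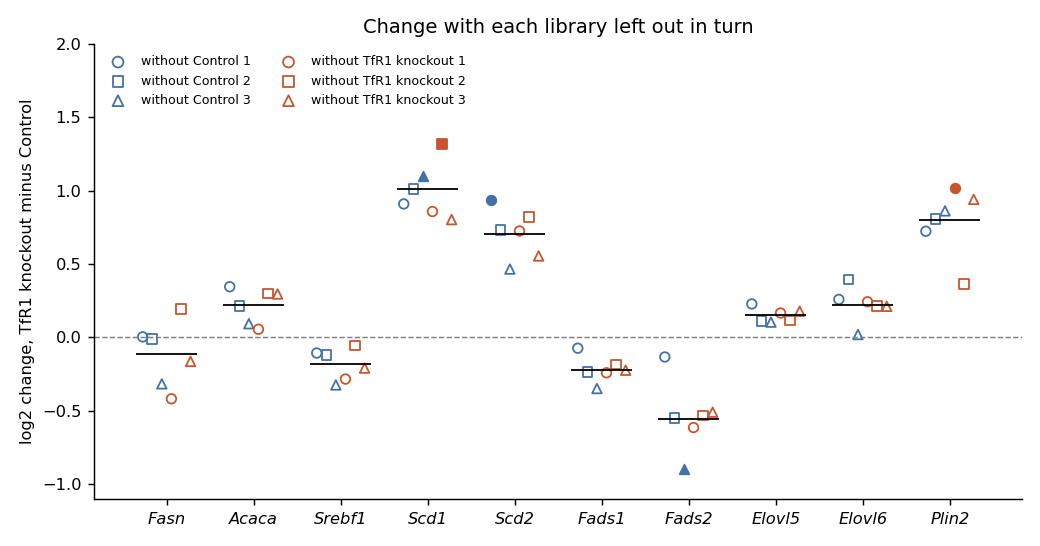
Log2 change (TfR1 knockout minus Control) of each gene from DESeq2 with each library left out in turn; filled symbols passed an adjusted p of 0.05 and the bars are the values with all 6 libraries. Fasn crosses 0, Fads2 moves between -0.89 and -0.13, and the calls for Scd1, Scd2 and Plin2 come and go with single libraries.

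Start-site sequence is shown for Fasn and Plin2, the genes at opposite ends in TfR1 knockout 2. The RefSeq windows are of build GRCm38.p6, not the mm9 build of the counts, and 7 of the 10 genes had one (Scd1, Scd2 and Fads1 did not). Capitals mark CCAAT, read on either strand, and the E-box CACGTG. The window runs from 150 bases before the start site to 10 bases into the transcript, at chr11:120824538-120824697 for Fasn and chr4:86670050-86670209 for Plin2, both on the minus strand.
Fasn: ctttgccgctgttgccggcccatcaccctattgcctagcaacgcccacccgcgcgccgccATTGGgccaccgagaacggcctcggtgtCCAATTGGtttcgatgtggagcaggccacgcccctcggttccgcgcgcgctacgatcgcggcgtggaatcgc
Plin2: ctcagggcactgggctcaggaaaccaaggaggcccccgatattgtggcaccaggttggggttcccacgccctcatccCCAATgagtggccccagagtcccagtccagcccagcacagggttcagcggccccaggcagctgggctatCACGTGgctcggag
Full windows of 300 bases were searched on both strands for these motifs, for the hypoxia response core ACGTG, which lies inside the E-box, and for the sterol regulatory element TCACNCCAC. CCAAT occurred 3 times for Fasn, with first bases at -90, -62 and -59 from the start site, and at -73 for Plin2; 37.4% of all 32851 windows hold it. The E-box occurred at -4 in the Plin2 window and at -161 in that of Elovl5, and 7.15% of all windows hold it. The hypoxia response core was found in the windows of Plin2, Elovl5 and Elovl6, against 19.6% of all windows. TCACNCCAC was in none of the windows of the 7 genes, and 1.24% of all windows hold it. These matches describe letters only.

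Ratios within a library do not depend on its scaling. The log2 ratio of Scd1 to Fasn, the desaturase against the synthase, was -0.78, -0.53 and 0.33 in Control 1 to 3 and 0.56, 0.74 and 1.00 in the knockout-labelled libraries. All 3 knockout-labelled libraries were above all Control libraries, TfR1 knockout 2 included. In TfR1 knockout 2 Scd1 was within the Control range at 1578 normalized counts, and Fasn was the lowest of the 6 libraries at 945.5. The difference was 1.09 (exact two-sided permutation test, p = 0.1, the smallest that 3 against 3 can give, adjusted p = 0.5 over 5 ratios). The other 4 ratios overlapped between groups (exact permutation test, adjusted p = 0.8 each). Their differences were -0.17 for Scd2 to Scd1, -0.20 for Fads2 to Fads1, 0.10 for Elovl6 to Elovl5 and 0.40 for Acaca to Fasn. The first 3 of these changed sign with a library left out, Scd2 to Scd1 without Control 1 (0.152) or TfR1 knockout 1 (0.0297), Fads2 to Fads1 without Control 1 (0.0348) and Elovl6 to Elovl5 without Control 3 (-0.0844).

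Transcripts of other tissues varied between the same libraries. Adipocyte markers summed to 4117 to 7927 normalized counts in Control and 3374 to 5999 in the knockout-labelled libraries, with 1 of 9 higher (Lep), 1 of 9 lower (Ucp1) and none at 0 in any library. Ucp1 alone held 1609, 3244 and 4178 of these counts in Control and 716, 422 and 945 in the knockout-labelled libraries. Plin1, which coats droplets in fat cells, had 281.2, 352.7 and 244.3 in Control and 508.2, 89.6 and 280.0 in the knockout-labelled libraries. It was highest in TfR1 knockout 1 and lowest in TfR1 knockout 2, as was Fasn, while Plin2 was highest in TfR1 knockout 2. Other markers of the list went both ways in TfR1 knockout 2. Retn (21.7 normalized counts), Adrb3 (3.84) and Ucp1 (422) were the lowest of the 6 libraries there, as was Plin1. Lep was the highest of the 6 libraries at 99.8, and Cidec (601) and Lipe (600.0) were above every Control library. Adipoq (357) and Cfd (1178) were within the Control range. In TfR1 knockout 1, Retn, Cfd, Cidec, Lipe and Adrb3 had their highest values, as did Plin1, while Adipoq, Lep and Ucp1 did not. The part of fat cells in the values of Fasn, Scd1 and Plin2 was not tested.

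Among Control libraries, 7 of the 10 genes were highest in Control 1, the library rich in adrenal transcripts, and 8 were lowest in Control 3. How many of all genes shared these extremes was not counted. Control 3 also differed in markers of other cells. Proximal tubule markers summed to 281524, 304913 and 120841 normalized counts in Control 1 to 3. Thick ascending limb and distal markers summed to 104631, 115612 and 56944. Stromal markers summed to 48689, 46110 and 99435.5, and endothelial markers to 11878, 11552.5 and 19775. The adrenal marker Star had 9334, 159.1 and 153.9 normalized counts in Control and 134.2, 350.6 and 1049 in the knockout-labelled libraries, and 0 of the 6 adrenal markers received an adjusted p. Fasn, Acaca, Srebf1, Scd2, Fads1, Fads2 and Elovl5 all followed the order Control 1, Control 2, Control 3. In TfR1 knockout 3, the other library with adrenal transcripts, Scd1 and Scd2 had their highest values of the 6 libraries and Fads2 its lowest among the knockout-labelled ones. Scd1 had its lowest value of the 6 libraries, 1283 normalized counts, in Control 1, which held the most adrenal transcripts. With Control 1 and TfR1 knockout 3 both left out, the log2 change of Scd1 was 0.70 (DESeq2 adjusted p = 0.526). That fit also had fewer samples, and 0 of the 10 genes passed in it. Fads2 went from -0.55 with all libraries to -0.09, and Fads1 from -0.22 to -0.08. Scd2 went from 0.70 to 0.79 and Plin2 from 0.80 to 0.86. Tubule markers did not move one way: beside the thick ascending limb, proximal tubule markers summed to 120841 to 304913 normalized counts in Control and 59667 to 93666 in the knockout-labelled libraries, with 5 of 12 lower and 1 higher. Kap alone held 46135 to 158797 of these counts in Control and 5892 to 11842 in the knockout-labelled libraries. Collecting duct markers summed to 18294 to 33612 and 40564 to 76150, with 2 of 8 higher and 2 lower. Aqp2 alone held 2409 to 5747 of these counts in Control and 17805 to 50719 in the knockout-labelled libraries. Each sum is thus weighted to its most abundant marker. The part of adrenal tissue, macrophages, stroma, vessels and tubule segments in the values of the 10 genes was not tested.

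**Figure D4:**
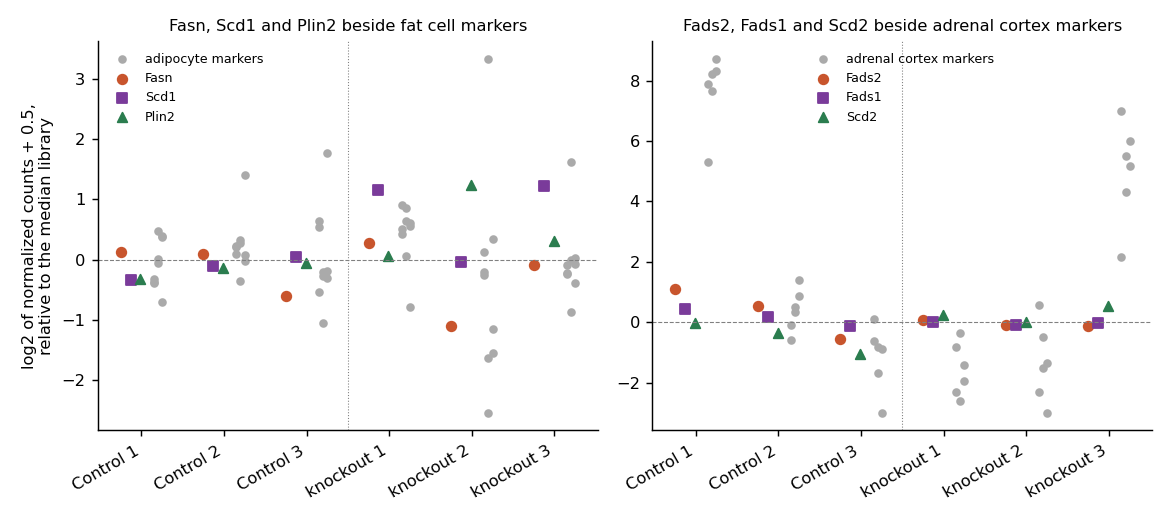
Log2 normalized counts (plus 0.5) relative to the median of the 6 libraries, for Fasn, Scd1 and Plin2 beside all 9 adipocyte markers (left) and Fads2, Fads1 and Scd2 beside all 6 adrenal cortex markers (right). TfR1 knockout 2 is low in Fasn and in several adipocyte markers and high in Plin2, and Control 1 and TfR1 knockout 3 carry the adrenal transcripts.

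The genes around the 10 were counted by role from lists of 102 other genes. Each count below is of genes with an adjusted p, by DESeq2 unless another tool is named. Beside them, DESeq2 called 7.74% of all tested genes higher and 7.18% lower. By edgeR 6.02% of all genes were called in either direction. The lists were chosen with earlier results of these data known. Of the genes for fatty acid synthesis and its supply, 2 of 10 rose and 1 fell (median log2 change 0.138), and by edgeR 1 rose and 1 fell. Mid1ip1, an activator of acetyl-CoA carboxylase, rose from 735 ± 163 to 1646 ± 362 normalized counts (log2 change 1.16, DESeq2 adjusted p = 1.67e-04, edgeR 0.029). Acss2, which makes acetyl-CoA from acetate, fell from 1846 ± 683 to 742 ± 173 (log2 change -1.32, DESeq2 adjusted p = 0.00114, edgeR 0.0481). Both passed with each library left out in turn. Idh1, a cytosolic source of NADPH, rose with a log2 change of 0.61, which was 0.45 to 0.71 with single libraries left out and lost its call without Control 2 or any 1 of the knockout-labelled libraries.

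Of the genes for SREBP and LXR control, 3 of 14 rose and 0 fell (median 0.105), and 0 passed by edgeR. Lpin1, a phosphatidate phosphatase and coregulator, had 530.2, 638.1 and 612.5 normalized counts in Control and 1037, 4979 and 1126 in the knockout-labelled libraries. TfR1 knockout 2 was far above the rest, as for Plin2; the log2 change of 2.00 (DESeq2 adjusted p = 0.00306) was 0.87 without it, and the call was lost without Control 3. Mbtps2, a protease that releases SREBP (log2 change 0.59, range 0.50 to 0.67), and Nr1h2, which encodes LXR-beta (0.55, range 0.43 to 0.63), rose by less. The call was lost for both without Control 1, Control 2 or TfR1 knockout 3, and for Mbtps2 also without TfR1 knockout 2.

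Among other elongation genes 1 of 11 rose and 1 fell (median 0.00108). Elovl1, for very long saturated chains, had a log2 change of 0.47 and lost its call with any library left out (range 0.38 to 0.53). Elovl2, for long polyunsaturated chains, fell by 0.98 on the log2 scale and lost its call without Control 1, Control 2 or TfR1 knockout 3 (range -1.22 to -0.80). Among other desaturases and membrane di-iron enzymes 0 of 11 rose and 1 fell (median -0.0895), Fads6, at low counts. It was named after its values were seen, and its call was lost without Control 1 or Control 2 (log2 change -1.88, range -2.20 to -1.66). Among the electron donors of the desaturases 1 of 6 rose, Cyb5r3, the NADH-cytochrome b5 reductase (log2 change 0.43, range 0.40 to 0.46), with the call lost without Control 1, Control 2 or TfR1 knockout 3. By edgeR 0 genes of these 3 lists passed.

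Among lipid droplet and lipolysis genes 4 of 16 rose and 1 fell (median 0.172), and by edgeR 2 rose and 0 fell. Plin4, a droplet coat protein of the perilipin family, had 301.8, 303.6 and 257.3 normalized counts in Control and 801.5, 607.7 and 695.3 in the knockout-labelled libraries. Every knockout-labelled value was far above the Control values, and the log2 change of 1.29 (SE 0.20, DESeq2 adjusted p = 5.96e-09, edgeR 0.0101) passed with each library left out. Pnpla2, the triglyceride lipase ATGL, rose from 2247 ± 399 to 5505 ± 1654 (log2 change 1.29, DESeq2 adjusted p = 3.74e-05, edgeR 0.0263), highest in TfR1 knockout 2. G0s2, an inhibitor of that lipase, rose by 0.82 on the log2 scale and lost its call without Control 1 or Control 2 (range 0.72 to 0.99). Cideb, a droplet protein of lipid-secreting cells, fell by 1.03 on the log2 scale and lost its call without Control 1, Control 2 or TfR1 knockout 3 (range -1.23 to -0.84).

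Among triglyceride synthesis genes 4 of 15 rose and 0 fell (median 0.208). Mogat1, a monoacylglycerol acyltransferase, had 64.3, 80.0 and 44.1 normalized counts in Control and 181, 207 and 117 in the knockout-labelled libraries, and rose (log2 change 1.42, DESeq2 adjusted p = 0.00127). Agpat9, which makes lysophosphatidate from glycerol-3-phosphate, rose from 113 ± 22.4 to 228 ± 16.9 (log2 change 1.00, DESeq2 adjusted p = 0.00102). Lpin3, a relative of Lpin1, rose by a log2 change of 0.74 and was the 1 gene of this list that passed by edgeR (adjusted p = 0.0353). By edgeR Mogat1 (adjusted p = 0.0522), Agpat9 (0.0503) and Agpat4 (0.0902) did not pass. The DESeq2 calls of Mogat1, Agpat9 and Lpin3 held with each library left out, and that of Agpat4 (log2 change 0.61, range 0.53 to 0.71) was lost without Control 1, Control 2, TfR1 knockout 2 or TfR1 knockout 3.

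Fatty acid uptake and activation genes moved both ways, with 5 of 18 higher and 5 lower (median 0.154), and 2 higher and 3 lower by edgeR. Fabp3, a fatty acid binding protein first known from heart muscle, fell from 1984 ± 139 to 352 ± 48.0 normalized counts (log2 change -2.50, SE 0.18, DESeq2 adjusted p = 1.96e-40, edgeR 9.17e-04). Fabp5 fell by 1.28 and Acsl3, an acyl-CoA synthetase found on droplets, by 0.85 on the log2 scale. Acsl4, an acyl-CoA synthetase that prefers arachidonate, rose from 1869.5 ± 147 to 6082 ± 2404, with TfR1 knockout 2 highest at 8816 (log2 change 1.70, DESeq2 adjusted p = 2.91e-07, edgeR 0.0172). All 4 calls held with each library left out. With Control 1 and TfR1 knockout 3 both left out, Plin4, Pnpla2, Mogat1, Lpin1, Mid1ip1, Acsl4, Fabp3 and Fabp5 still passed by DESeq2, and the other named genes of these lists did not.

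**Figure D5:**
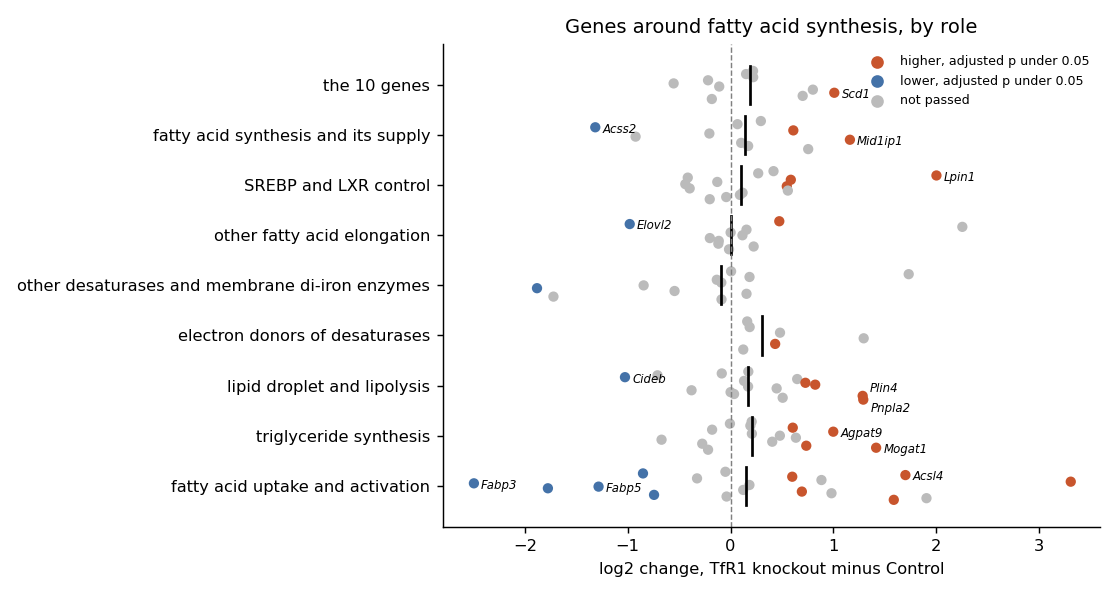
Log2 change (TfR1 knockout minus Control) of each tested gene of the 9 lists, with a bar at each list's median; orange and blue points passed an adjusted p of 0.05 by DESeq2, higher and lower. Of the 10 genes Scd1 is the coloured point; the droplet and triglyceride lists hold 4 higher points each, and uptake and activation holds 5 in each direction.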

How the data were processed

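RNA of 6 whole kidneys was sequenced from poly-A libraries. Per the labels, the authors trimmed reads with Trimmomatic, aligned them to mm9 with TopHat2 2.0.11 and counted them per gene with HTSeq, and the deposited values are raw counts. Samples were grouped by genotype label. DESeq2 1.42.0, the study's tool, was fitted on all genes of the 3 Control and 3 TfR1 knockout libraries (Wald test, Benjamini-Hochberg adjustment, threshold 0.05), with edgeR 4.0.16 (quasi-likelihood) and limma-voom 3.58.1 beside it in R 4.3.3. Genes under a mean of 3.51 normalized counts had no adjusted p, nor did genes removed by the outlier filter of DESeq2, the 6 adrenal markers among them. Normalized counts are counts divided by DESeq2 size factors. Whole-gene counts do not separate isoforms. Scripts were tested on simulated data. The 10 genes and all lists were chosen with earlier results of these data known. From each other list, at most 4 genes were named: adjusted p under 0.05, mean of at least 100 normalized counts, no overlap between groups, largest change first. Same-numbered libraries did not deviate together (r 0.0291, 0.0231 and 0.183 over 15303 genes), so no block was used. Alternatives were other tools, scaling, filters, each library left out, and Control 1 with TfR1 knockout 3 left out, the last chosen after seeing the data.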

Additional observations from a re-analysis of the deposited data

How the results depend on the processing

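Of the changes of the 10 genes across alternatives, 135 stayed on their side of the threshold, 5 gained a call, 8 lost it and 2 reversed. The count of these genes called higher was 1, and was 0 under edgeR, limma-voom, total-count scaling (which lowered the median of all genes by 0.104 on the log2 scale; Scd1 0.94, DESeq2 adjusted p = 0.0806) and with Control 1 and TfR1 knockout 3 both left out. It was 3 with a replicate block, Scd1, Scd2 (adjusted p = 0.0402) and Plin2 (0.0375), all by DESeq2; the numbers only name the libraries. With each library left out it was 0 to 1, the 1 being Scd1 without Control 3 or TfR1 knockout 2, Scd2 without Control 1 and Plin2 without TfR1 knockout 1; the count called lower was 0 to 1 (Fads2 without Control 3). Genes called among all genes numbered 2463, and 921 by edgeR, 941 by limma-voom, 681 without Control 1 and TfR1 knockout 3, and 1239 to 3205 with each library left out. Without Control 1 they were 1239, without Control 2 1332 and without TfR1 knockout 3 1512. The log2 change of Fasn reversed without Control 1 (0.00415) and TfR1 knockout 2 (0.193), over a range of -0.418 to 0.193. Ratios reversed for Scd2 to Scd1 (0.152 without Control 1, 0.0297 without TfR1 knockout 1, lowest -0.54), Fads2 to Fads1 (0.0348 without Control 1, lowest -0.525) and Elovl6 to Elovl5 (-0.0844 without Control 3, highest 0.308). The cause was not tested. Leaving out 2 libraries also left fewer samples.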
